A study of Drosophila melanogaster with 5 samples.

Results

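The 10 genes described here encode proteins that neuroblasts, the neural stem cells of the Drosophila larval brain, use to divide into unequal daughter cells. They are mira, pros, pon, insc, brat, numb, pins, baz, par-6 and aPKC, and they were chosen by name, with earlier results of these data known. Every probe set of the array whose annotation gave 1 of these genes as its single symbol was taken, which found all 10 genes on 11 probe sets, out of 11982 genes on 18769 tested probe sets. The arrays (Affymetrix Drosophila 2.0) were hybridised with RNA of cephalic complexes, which are brain lobes with eye-antennal imaginal discs, from 3rd instar larvae. The control group was FRT82B at day 0 (2 arrays), and the mutant group was lgl27S3/lglE2S31 at day 4 (3 arrays), in which both copies of lethal giant larvae carried a null allele (the gene is called lgl here and has the symbol l(2)gl). Each array held RNA pooled from 20 pairs of complexes per the series' design text, while the study's methods count 20 complexes, and the study's text gives another control strain than the labels. The submitters left another FRT82B sample out for its quality. Genotype and day changed together between the groups, so every difference below is of both at once and the 2 cannot be told apart.

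A dividing neuroblast sorts its contents along an axis. The PAR complex of Bazooka (baz), Par-6 and the kinase aPKC lies at the apical cortex and stays with the stem cell. Inscuteable (insc) joins Bazooka to Pins, which in turn anchors the mitotic spindle through Mud. aPKC phosphorylates its substrates off the apical cortex, so that the adaptors Miranda (mira) and Partner of Numb (pon) gather at the basal side and carry the cell fate determinants Prospero (pros), Brat and Numb into the smaller daughter. Lgl is a substrate and an antagonist of aPKC in this system, and lgl mutant brains are known for an excess of neuroblasts. Several of these genes are also used elsewhere in the complexes. baz, par-6 and aPKC act in the disc epithelia, and pros is also expressed in neurons, in glia and in the eye disc. In bulk RNA, a change in the number of cells of a type and a change of RNA per cell cannot be told apart.

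Values are log2 expression after RMA (robust multi-array average), where a step of 1 is a doubling. A gene was called changed where limma gave an adjusted p under 0.05, over all tested probe sets, together with a log2 change of at least 1 in size. As a check of the labels, l(2)gl read 7.74 and 6.74 on the FRT82B arrays and 2.24 to 2.44 on the lgl arrays. The lgl arrays lay close together (r = 0.995 to 0.997 across probe sets), while the FRT82B arrays correlated at 0.981. RNA quality also moved with the groups. The excess of 3′ over 5′ signal of the actin control was 0.71 and 0.73 in FRT82B but 0.35 to 0.58 in lgl, and that of the eIF-4a control was 1.68 and 2.01 but 1.41 to 1.65. For the GAPDH and 18S rRNA controls the arrays of both groups overlapped. The part of RNA quality in the values below was not tested.

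The basal adaptors and the determinant pros were higher in lgl complexes, whereas 2 of the 3 members of the apical PAR complex lay at nearly the same level in both groups. Of the 10 genes, mira, pros and pon were called, all 3 higher, and 7 were not called. Among all genes 0.734% were called higher. The study's own list of changed genes already holds mira, pros and pon with the same log2 changes, so that these calls repeat it. The 3 called genes all belong to the basal side of the machinery, where 3 of 5 genes were called, against 0 of 5 among the PAR complex and its spindle linkers. The split is one of calls and not of size. On the apical side, insc (1.78) and baz (1.63) had larger log2 changes than the called pon (1.04). Their control arrays lay further apart than those of pon. This difference between the basal and the apical side was not tested. The lgl arrays lay above both FRT82B arrays for 5 genes (mira, pros, pon, insc and baz), as for 17.6% of all genes, and the groups overlapped for the other 5. The median log2 change of the 10 genes was 0.77, and that of all genes was -0.03.

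**Figure D1:**
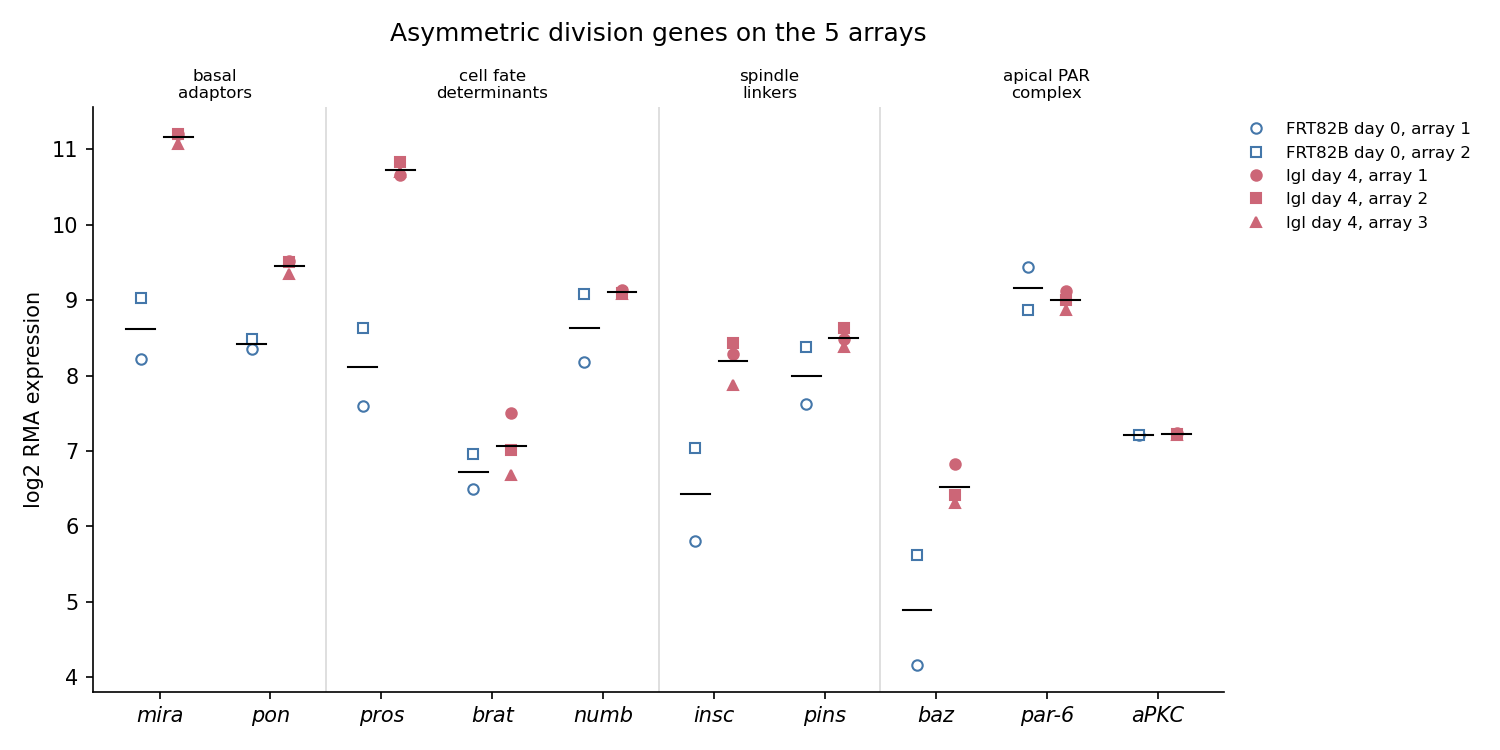
Log2 RMA expression (vertical axis) of the 10 genes, grouped by role, on each of the 2 FRT82B day 0 arrays (open symbols) and the 3 lgl day 4 arrays (filled symbols), with group means as black lines. The lgl arrays sit above both FRT82B arrays for mira, pon, pros, insc and baz, while the groups overlap for the other 5, and levels are not comparable between genes because each has its own probes.

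mira encodes the adaptor that carries Prospero and Brat to the basal cortex. In FRT82B complexes it read 8.22 (array 1) and 9.03 (array 2), and in lgl complexes 11.21, 11.21 and 11.07 (probe set 1639183_a_at). All 3 lgl arrays were thus higher than both control arrays, and they differed among themselves by 0.14 while the control arrays differed by 0.81. On the log2 scale mira rose by 2.54 (SE 0.26, limma adjusted p = 0.0324), which is 5.82-fold and place 47 from the top among all probe sets. The fit takes 1 spread for both groups, while the SD of mira was 0.57 in FRT82B (n = 2) and 0.08 in lgl (n = 3). Where the group with fewer arrays spreads more, as here and for pros, the SE and adjusted p can be too small.

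pros, a homeodomain transcription factor that represses stem cell genes in the daughter cell, is the cargo of Miranda. It read 7.60 and 8.63 in FRT82B, and 10.66, 10.83 and 10.71 in lgl (1635500_a_at). The control arrays lay 1.03 apart, and the lowest lgl array still lay above the higher of them. It rose by 2.62 on the log2 scale (SE 0.32, limma adjusted p = 0.0456), which is 6.14-fold and place 46 from the top, next to mira. On the lgl arrays pros, like mira, was nearly constant, with an SD of 0.09 for pros and 0.08 for mira (n = 3).

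pon encodes the adaptor that helps to bring Numb to the basal cortex. It read 8.35 and 8.48 in FRT82B, and 9.52, 9.51 and 9.34 in lgl (1628732_at). Both groups were tight, with SDs of 0.09 (n = 2) and 0.10 (n = 3), and they did not overlap. It rose by 1.04 on the log2 scale (SE 0.09), or 2.06-fold, with the lowest adjusted p of the 10 genes (limma, 0.0274). It stood just inside the fold threshold of 1. Among the called genes pon had the smallest change but also the smallest gap between the control arrays, 0.13.

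The other determinants, brat and numb, were not called. brat, a translational repressor and brain tumour suppressor that also travels with Miranda, read 6.49 and 6.96 in FRT82B, and 7.50, 7.01 and 6.68 in lgl (1639217_s_at). The lgl arrays spread over 0.82, wider than the control arrays, and the third of them lay below FRT82B array 2. The log2 change was 0.34, with a 95% interval from -0.44 to 1.11. numb, an inhibitor of Notch signalling and the partner of Pon, read 8.18 and 9.09 in FRT82B, and 9.14, 9.10 and 9.09 in lgl (1636815_a_at). The 3 lgl arrays spanned 0.05 and lay level with FRT82B array 2, above array 1. Its log2 change was 0.47 (95% interval -0.27 to 1.21), and this rested on 1 control array, being 0.93 against FRT82B array 1 and 0.02 against array 2. The intervals of brat and numb both include 0 and a change of 1, so that these arrays did not resolve a doubling of either from no change.

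Of the linkers between cortex and spindle, neither insc nor pins was called. insc, which is known as a gene of asymmetrically dividing cells and couples the PAR complex to Pins, read 5.81 and 7.04 in FRT82B, and 8.28, 8.43 and 7.88 in lgl (1625035_at). The groups did not overlap, but the control arrays lay 1.23 apart. The difference was 1.78 on the log2 scale (95% interval from 0.68 to 2.87, SE 0.41), and limma gave an adjusted p of 0.129. pins, a scaffold that binds the G protein subunit Galphai and the spindle protein Mud, read 7.62 and 8.38 in FRT82B, and 8.49, 8.63 and 8.38 in lgl (1639984_at). The lowest lgl array and FRT82B array 2 had nearly the same value. The log2 change was 0.50 (95% interval -0.16 to 1.16). Another probe set, annotated to both pins and hoip, was not used.

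The 3 genes of the apical PAR complex gave 3 different patterns, none of them called. baz, the scaffold of the complex, read 4.16 and 5.62 in FRT82B, and 6.83, 6.41 and 6.32 in lgl (1629227_at). Every lgl array was higher than both control arrays, but the control arrays differed by 1.46, the widest gap among the 10 genes. The difference was 1.63 on the log2 scale (95% interval from 0.37 to 2.89, SE 0.48), and limma gave an adjusted p of 0.186. par-6, a PDZ domain protein that regulates aPKC, read 9.45 and 8.87 in FRT82B, and 9.12, 9.0 and 8.87 in lgl (1625748_s_at). The lgl arrays lay between the control arrays or level with the lower one. Its log2 change was -0.16 (95% interval -0.68 to 0.36), which became 0.13 without FRT82B array 1.

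aPKC, the kinase that Lgl restrains, was the most even of the 10. It read 7.22 and 7.21 in FRT82B, and 7.24, 7.22 and 7.21 in lgl (1627948_at). The log2 change was 0.01 (SE 0.05), and its 95% interval ran from -0.13 to 0.16 on this probe set. The other aPKC probe set (1640307_at) read 3.45 and 3.69 against 3.39 to 3.45, below the median of all probe sets on each of the 5 arrays, with a log2 change of -0.14. The lowest value of any probe set was 1.98 to 2.09 on these arrays.

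**Figure D2:**
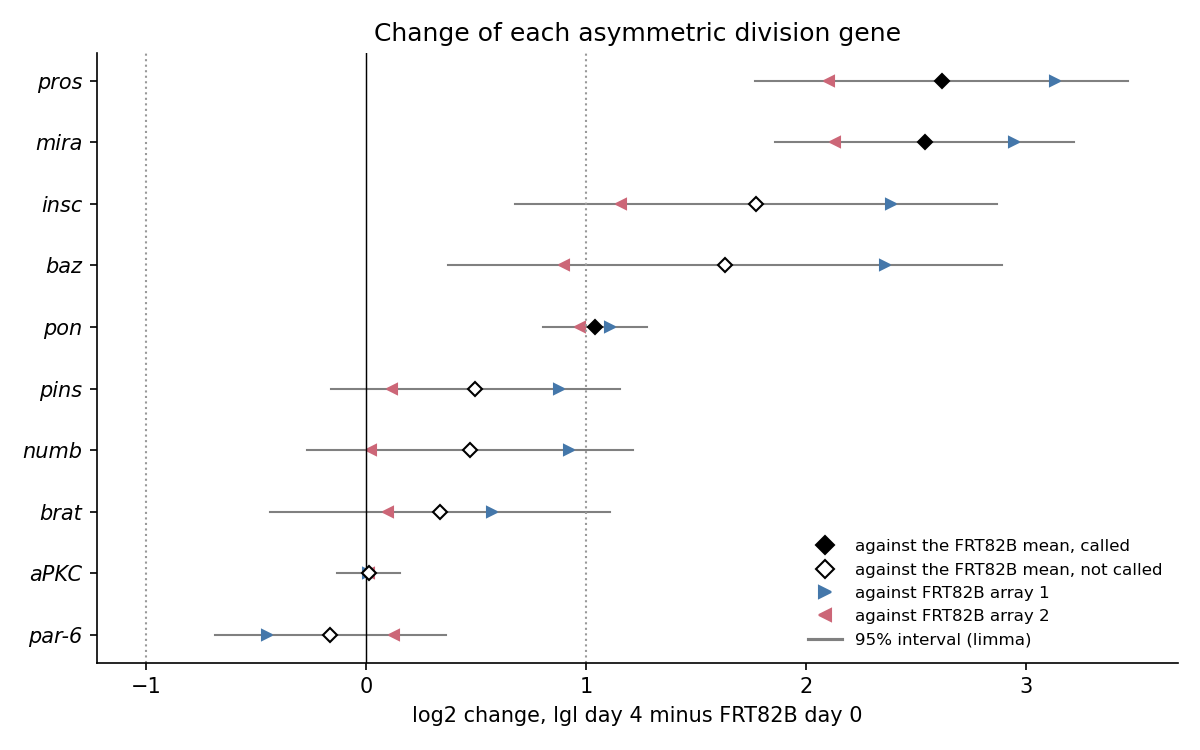
Log2 change of each gene (horizontal axis, lgl day 4 minus FRT82B day 0) against the mean of both FRT82B arrays, with its 95% interval, and against each FRT82B array alone. Dotted lines mark changes of 1 in size. pros, mira and pon are called; the triangles for the 2 control arrays are wide apart for insc and baz and nearly coincide for pon and aPKC.

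How far each gene stood from the controls depended on which FRT82B array it was set against. 8 of the 10 genes read higher on FRT82B array 2 than on array 1, where 43.7% of all genes did, and for 6 of them (baz, insc, pros, numb, mira and pins) the step was at least 0.5, as for 14.4% of all genes. Against FRT82B array 1, the lgl mean was higher by 3.13 for pros, 2.95 for mira, 2.39 for insc, 2.36 for baz and 1.11 for pon. Against array 2, these differences were 2.10, 2.13, 1.16, 0.90 and 0.97. The order of the genes was thus nearly the same, while the differences of insc and baz were smaller by 1.23 and 1.46. The median over the 10 genes was 1.02 against array 1 and 0.51 against array 2. All 6 eye-antennal disc markers also read higher on FRT82B array 2 than on array 1, and their mean log2 level was 5.53 on array 1, 6.38 on array 2 and 6.07 to 6.40 on the lgl arrays. The step was not particular to the disc markers. From array 1 to array 2 the mean also rose for fat body (5.42 to 6.72) and tracheal genes (4.41 to 5.71). It rose too for salivary gland (4.15 to 5.13) and ring gland genes (6.49 to 7.22). For muscle genes (6.21 to 4.91), glial genes and the neuroblast markers dpn, ase and wor it fell. Whether the share of disc or other tissue in the dissections had a part in this was not tested.

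The calls also moved with the arrays that entered the fit, as did those over all probe sets. With any 1 lgl array left out, limma called 0 of the 18769 probe sets (2093 to 2476 at an unadjusted p under 0.05) and so none of the 10 genes, with 4 of 10 at an unadjusted p under 0.05. The adjusted p then ran from 0.171 to 0.211 for mira, from 0.194 to 0.250 for pros and from 0.150 to 0.183 for pon. Without FRT82B array 1 mira and pros were called, among 71 of all probe sets. Without FRT82B array 2 insc and baz were called besides mira, pros and pon, among 1306 of all probe sets, against 197 with all 5 arrays. The sizes moved less than the calls, and whichever array was left out the log2 change lay between 2.13 and 2.95 for mira, between 2.10 and 3.13 for pros and between 0.97 and 1.11 for pon.

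These genes were then set beside transcription factors that mark neuroblasts and their progenitors. Of 9 such genes, grh and cas, which act in the temporal series of neuroblasts, were called higher, as were 0.734% of all genes, and 7 were not called. Both are on the study's own list of changed genes too. All 9 had a change above 0, as had 44.5% of all genes, and their median was 0.996. grh read 7.43 and 7.45 in FRT82B but 9.15 to 9.52 in lgl, a log2 change of 1.88 (SE 0.13, limma adjusted p = 0.0214), while its other probe set stayed between 2.95 and 3.04. cas read 8.15 and 8.33 against 9.89 to 10.23, a change of 1.82 (SE 0.13). Whichever array was left out, the change lay between 1.78 and 1.96 for grh and between 1.73 and 1.91 for cas. Both calls were lost without FRT82B array 1, where 71 of all probe sets were called (adjusted p = 0.0576 for each), and without any 1 lgl array, where no probe set was called, and that of grh with the probe sets of each gene averaged. klu, a zinc finger factor of neuroblasts, read 4.75 and 5.63 against 6.29 to 6.59 (1.24, SE 0.29, limma adjusted p = 0.128). The neuroblast factors dpn and wor stood just outside the thresholds. dpn read 7.73 and 8.13 against 8.98 to 9.24 (1.203, SE 0.16, limma adjusted p = 0.0512), and wor read 8.61 and 8.55 against 9.50 to 9.63 (0.996, SE 0.07, limma adjusted p = 0.0226). ase, a proneural factor of neuroblasts, read 9.07 and 8.38 against 8.72 to 9.04, with overlapping groups.

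The members were also set against the neuroblast markers of the same arrays. The mean log2 level of dpn, ase and wor was 8.47 and 8.35 on the FRT82B arrays and 9.07 to 9.29 on the lgl arrays, a difference of 0.78. Relative to that mean, mira read -0.26 and 0.67 in FRT82B but 1.92 to 2.00 in lgl, a log2 difference of 1.76 between the groups. pros read -0.87 and 0.27 against 1.37 to 1.64, a difference of 1.84. insc and pon also lay higher than both control arrays on this scale, by 0.99 and 0.26 on average, as did 1.47% of all genes. par-6 and aPKC lay lower, by 0.94 and 0.77, as did 83.8% of all genes, and the groups overlapped for baz, pins, numb and brat. Set against dpn alone or wor alone, mira and pros still lay above both control arrays, by 1.34 and 1.42 on average for dpn and by 1.54 and 1.62 for wor, whereas the groups overlapped for insc and pon. Lower than both control arrays were pins, aPKC and par-6 against either of these markers, and numb and brat against dpn. dpn and wor themselves rose by 1.203 and 0.996, so that any gene at a constant level lies lower on these 2 scales. Set against ase alone, mira (2.39), pros (2.47), insc (1.63), baz (1.48) and pon (0.89) lay above both control arrays. On that scale par-6 lay lower (-0.31), and the groups overlapped for pins, numb, brat and aPKC. The shares of all genes were not computed for single markers. The two-sided exact permutation test used here takes 2 times the smaller one-sided p. With 3 against 2 arrays this test cannot give a p below 0.2. Each of the 6 genes that did not overlap against the mean gave that value.

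**Figure D3:**
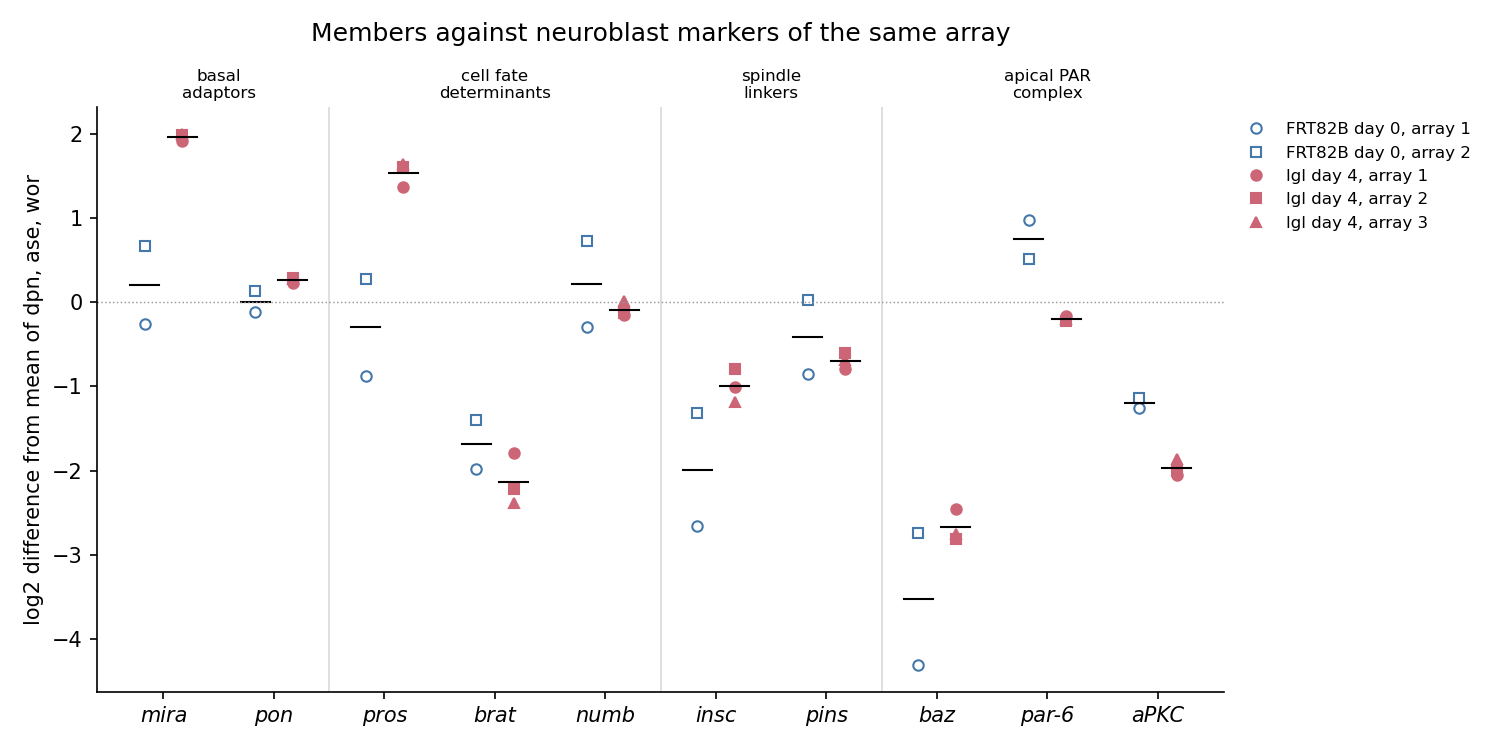
Log2 difference of each gene from the mean of dpn, ase and wor on the same array (vertical axis), for the 2 FRT82B day 0 arrays (open) and the 3 lgl day 4 arrays (filled), with group means as black lines. mira and pros lie 1.37 to 2.00 above the marker mean on the lgl arrays, and par-6 and aPKC lie lower relative to it than on the FRT82B arrays.

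In the wider machinery of polarity, spindle orientation and determinant sorting, l(2)gl was the 1 called gene. Of 37 further genes listed, 23 had a probe set with their single symbol, and the other 14 are not analysed here. 0 were called higher by limma (5 of the 23 were higher at an unadjusted p under 0.05). 1 was called lower (l(2)gl itself, among 5 lower at an unadjusted p under 0.05) and 22 were not called. Among all genes 0.734% were called higher and 0.609% lower, and 2638 of 11982 had an unadjusted p under 0.05 in either direction. The median log2 change of the 23 was 0.16. The groups did not overlap for 16 of the 23, with 9 higher and 7 lower, as for 17.6% and 21.1% of all genes.

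l(2)gl had a log2 change of -4.88 (SE 0.31, limma adjusted p = 0.0209) against the mean of both controls. Its lgl values lay near the lowest of any probe set (1.98 to 2.09), so that the change may be larger in size than measured. It was -5.38 to -4.38 with 1 array left out, and not called without any 1 lgl array, as no probe set was then called. Of its partners at the lateral cortex, the scaffold gene scrib read 5.72 and 6.85 in FRT82B but 7.18 to 7.47 in lgl, a log2 change of 1.08 (SE 0.36, limma adjusted p = 0.228). 4 other probe sets of scrib gave changes from -0.32 to 0.38. dlg1, the third gene of this group and a Pins partner, read 6.85 and 7.52 against 6.94, 6.94 and 6.94, so that its lgl arrays lay between the control arrays. Rok, a kinase that activates myosin, read 5.56 and 6.41 against 6.82 to 7.42 (1.04, SE 0.33, limma adjusted p = 0.211).

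None of the measured genes that act with Pins at the spindle was called. Galphai, its G protein partner, read 9.32 and 9.69 in FRT82B but 9.83 to 9.91 in lgl, a log2 change of 0.36. mud, which links Pins to dynein, read 5.76 and 5.36 against 5.723 to 5.996, with overlapping groups. loco, a regulator of G protein signalling, read 6.996 and 8.39 against 8.11 to 8.22, and was above FRT82B array 1 but below array 2. stau, which encodes an RNA-binding cargo of Miranda that localises pros mRNA, read 7.95 and 8.03 against 8.06 to 8.22, a change of 0.15. Zif, a zinc finger factor known to regulate aPKC expression in neuroblasts, read 8.33 and 8.72 against 8.89 to 9.07 (0.46).

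Besides l(2)gl, 2 partners passed the adjusted p with changes under the fold threshold, both lower, as did 0.943% of all genes at that p whatever the fold. They are named here after their values were seen. AP-2alpha, the adaptin through which Numb acts on endocytosis, read 9.42 and 9.27 in FRT82B but 8.45 to 8.66 in lgl, a log2 change of -0.77 (SE 0.10, limma adjusted p = 0.0484). Khc-73, a kinesin that couples Dlg to the spindle, read 9.18 and 9.29 against 8.55 to 8.60 (-0.65, SE 0.06, limma adjusted p = 0.0316), but its other probe set gave a change of 0.46 in the opposite direction. spdo, which Numb keeps from the cell surface, read 7.81 and 8.60 against 8.66 to 8.86 (0.59).

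**Figure D4:**
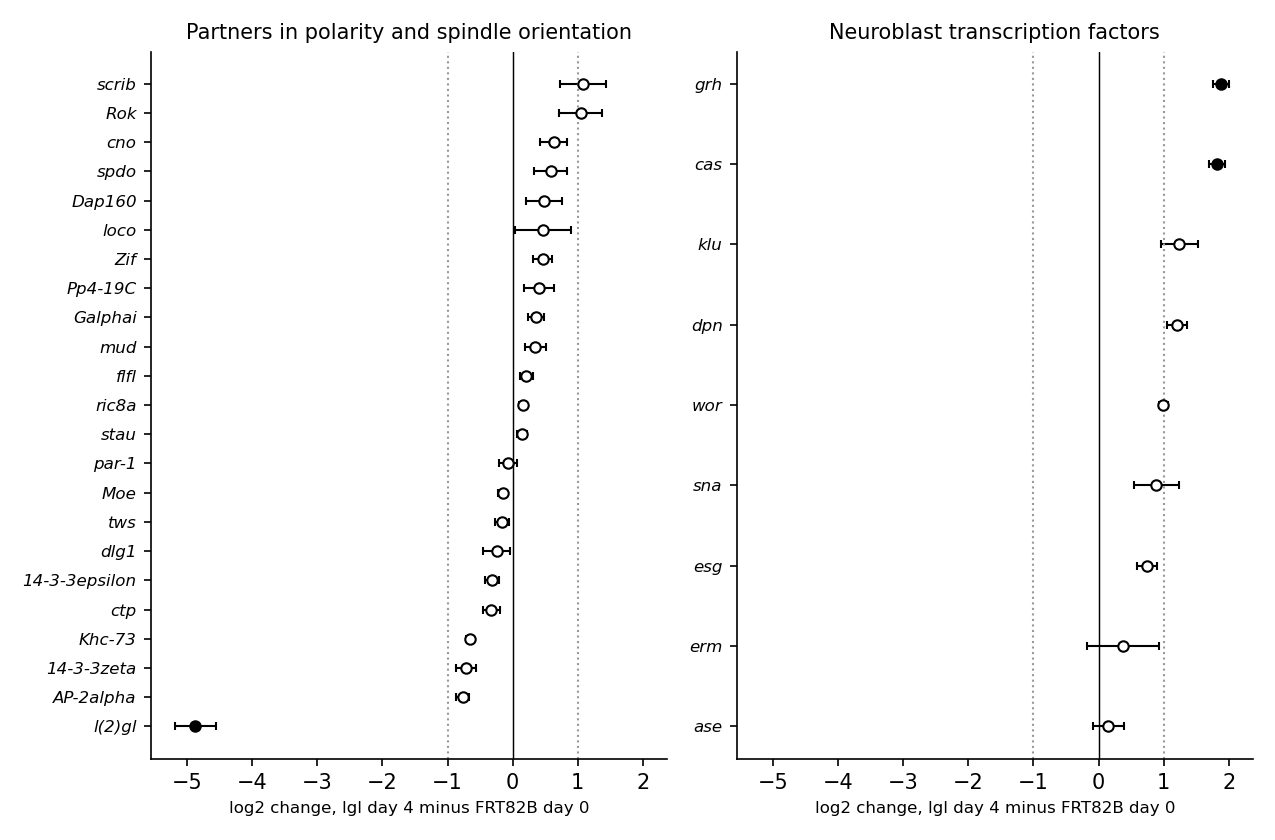
Log2 change (horizontal axis, lgl day 4 minus FRT82B day 0) with its SE for 23 partner genes (left) and 9 neuroblast transcription factors (right), filled where called, with dotted lines at changes of 1 in size. l(2)gl, measured at -4.88 with lgl values near the lowest of any probe set, is the only called partner, and grh and cas at 1.88 and 1.82 are the called factors.

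Of the eye-antennal disc markers of the labelled tissue, dac read 7.73 to 8.95 and ey 7.10 to 7.59 over the 5 arrays, but gl read 3.23 to 4.10, around the array medians of 3.79 to 3.86. Markers of other cell types in or near the complexes differed between the groups too. The mean log2 level of 4 neuronal genes (elav, nSyb, brp and fne) was 8.02 and 8.38 in FRT82B but 7.33 to 7.52 in lgl, and 1 of them, fne, was called lower. nSyb (-0.68) also lay below both control arrays on every lgl array, while the groups overlapped for elav and brp. Over 5 glial genes the mean was 8.88 and 8.80 against 8.35 to 8.51, with Gs2 called lower (-2.01). The glial genes did not share a direction, and repo, the factor that marks most glia, read 7.66 and 8.503 against 8.84 to 8.89 (0.78, limma adjusted p = 0.227). Over 4 haemocyte genes the mean was 4.98 and 5.02 against 5.94 to 7.02, and over 3 tracheal genes 4.41 and 5.71 against 6.74 to 6.85. In either list limma called 0, with 2 of 4 and 2 of 3 at an unadjusted p under 0.05. Of all 11982 genes, 2638 had such a p. The tracheal genes did not share a direction. serp (2.77) and verm (2.64) were higher, while btl (-0.18) overlapped between the groups and lay below the median on all 5 arrays. Over 3 fat body genes the mean was 5.42 and 6.72 against 6.90 to 9.18, and over 4 ring gland genes 6.49 and 7.22 against 3.44 to 4.15, with spok called lower. Over 2 muscle genes it was 6.21 and 4.91 against 4.21 to 4.60, while 3 salivary gland genes overlapped between groups. The part of these tissues in the values of the 10 genes was not tested.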

How the data were processed

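The authors deposited log2 expression for each probe set on each array, after RMA background correction and normalisation in Bioconductor (software versions: not given in the sources used here). Because RMA equalises the distributions of the arrays, a shift common to nearly all transcripts is hidden, and differences close to background are compressed. Arrays were grouped by their titles, which call them biological replicates. After 183 control probe sets were dropped, 18769 remained, of which 13647 carried a single gene symbol. Symbols were updated through gene identifiers (13544 matched), and 1 older name of a ring gland marker by hand. For a gene with several probe sets, the one with the highest mean over the 5 arrays was used. Groups were compared with limma 3.58.1 (lmFit, eBayes) in R 4.3.3 with Benjamini-Hochberg adjustment, after the study's methods. 95% intervals come from the same fit, which takes 1 spread for both groups. Precision is limited by how few arrays there are. The procedure was tested on simulated data that had the same spread on every array. Control arrays that differ more than the lgl arrays, as here, were not covered by that test. All 10 genes are named, with every called gene of the other lists. Of partners and neuroblast factors, the 3 with the largest change are named where fewer were called, and further partners for their role. Markers of other cell types are given mainly as means of their lists. The members and lists were chosen with earlier results of these data known. Alternatives were a repeated quantile normalisation, centring on the array median, use of the brighter probe sets alone, eBayes with trend and robust prior, weights for arrays, a replicate block, leaving out each array, other fold thresholds and averaging the probe sets of each gene. No sequences are printed, since none were used here.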

Additional observations from a re-analysis of the deposited data

How the results depend on the processing

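With a repeated quantile normalisation, centring on the array median, the brighter probe sets alone, eBayes with trend and robust prior, averaged probe sets or other fold thresholds, limma called the same 3 of the 10 genes (mira, pros and pon). It called 0 with array weights (adjusted p from 0.0806 to 0.129 for these 3). With these weights 5 of 10 had an unadjusted p under 0.05, beside 2288 of the 18769 probe sets. With the replicate block limma also called 0 (adjusted p = 0.314 for these 3, and 4 of 10 at an unadjusted p under 0.05). The replicate numbers came from the titles, which name no shared batch. Deviations from the group means correlated at 0.03 and 0.07 between arrays of the same number. With 2 FRT82B arrays both values rest on the same control difference, so that they cannot decide whether arrays of 1 number share a batch. lgl array 3 has no partner and does not enter that contrast, and limma called 0 of all probe sets with the block (2074 at an unadjusted p under 0.05). Leaving out 1 array gave 0 to 5 of the 10 genes, 0 to 3 partners, 0 to 6 neuroblast factors and 0 to 1306 of all probe sets, against 197 with all arrays. Without 1 FRT82B array, the spread of the lone control array was taken from the lgl arrays. The call of pon was lost without FRT82B array 1 (0.97, adjusted p = 0.0587).

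Partners called were 0 with the block and 3 without a fold threshold or with one of 0.5. Neuroblast factors called were 4 with a repeated quantile normalisation or with centring on the median, which added dpn and wor, and 0 with array weights and with the block. Of all probe sets, 395 were called among the brighter ones, 12 with array weights, 305 without a fold threshold and 302 with one of 0.5. The sign turned for aPKC with a repeated quantile normalisation (-0.065) and with averaged probe sets (-0.065), and for par-6 without FRT82B array 1 (0.13, with a range from -0.45 to 0.13 over the arrays left out), none of these called. The cause of these changes was not tested. 3 against 2 arrays limit what can be resolved. A probe set near background, as 1 of those of aPKC, may miss a change.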
